A study of Saccharomyces cerevisiae with 6 samples.

Results

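Budding yeast carries a set of enzymes that interconvert ethanol, acetaldehyde and acetate. The genes described here are 10 of its dehydrogenase genes, the aldehyde dehydrogenase genes ALD2 to ALD6 and the alcohol dehydrogenase genes ADH1 to ADH5, taken by systematic name from the 7126 features of the deposited table. All 10 had a row, and all 10 passed the filter on low values, which asked for 1 RPKM or more on average (RPKM is the number of reads per kilobase of gene, scaled to library size). The study compared 3 libraries of wild type (WT) in the W303 background with 3 libraries of a mutant called mms21RINGD, under a series title that links the SUMO ligase Mms21 to ribosome biogenesis. MMS21 encodes an enzyme that joins the small protein SUMO to other proteins, and the labels say no more of the allele than its name. Both groups were grown in YPD with CSM to an optical density in the exponential range, and ribosomal RNA was depleted before library preparation. The labels do not say whether replicates were separate cultures or how many isolates of the mutant were used, so every p-value measures the spread between these libraries.

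In fermenting yeast, pyruvate is decarboxylated to acetaldehyde, which Adh1 reduces to ethanol in the cytosol, restoring NAD+ for glycolysis. Adh2 runs the reaction in the other direction when glucose is used up, Adh3 works in the mitochondrial matrix, Adh5 is a minor relative of Adh1, and Adh4 belongs to an unrelated family. Aldehyde dehydrogenases oxidize acetaldehyde to acetate: Ald6 in the cytosol with NADP+, Ald4 and Ald5 in mitochondria. Ald2 and Ald3 are stress-induced cytosolic enzymes that also serve the synthesis of beta-alanine, a precursor of coenzyme A. ALD2, ALD3, ALD4 and ADH2 are textbook glucose-repressed genes.

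ALD2 and ALD3 lie in tandem on the minus strand of chromosome XIII and differ far more in front of their coding sequences than within them. The 140 bases that begin 370 bases before each start codon (R64 assembly, minus strand, chrXIII:601103-601242 for ALD3 and chrXIII:603313-603452 for ALD2) are shown because these neighbours differed most in their response. Capitals mark AGGGG or its complement CCCCT, the stress response element read by the activators Msn2 and Msn4.
ALD3: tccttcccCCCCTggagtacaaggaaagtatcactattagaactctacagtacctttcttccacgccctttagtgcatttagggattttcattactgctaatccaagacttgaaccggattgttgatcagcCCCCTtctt
ALD2: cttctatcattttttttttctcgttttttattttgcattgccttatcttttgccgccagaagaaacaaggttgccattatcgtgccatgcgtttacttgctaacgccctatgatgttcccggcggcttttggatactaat

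Within the coding sequences ALD2 and ALD3 were 91.8% identical, with 125 differences in 1521 bases and the first 329 bases the same. Their last 120 bases, where 28 positions differed, are shown to mark where a read could be told apart, with the differing bases in capitals (chrXIII:601562-601681 for ALD2 and chrXIII:599352-599471 for ALD3, minus strand).
ALD2: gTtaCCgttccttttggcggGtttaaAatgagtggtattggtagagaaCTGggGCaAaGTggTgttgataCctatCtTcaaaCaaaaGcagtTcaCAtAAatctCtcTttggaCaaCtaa
ALD3: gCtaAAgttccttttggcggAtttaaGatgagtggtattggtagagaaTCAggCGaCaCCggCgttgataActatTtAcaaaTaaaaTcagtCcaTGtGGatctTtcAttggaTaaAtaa

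ADH1 and ADH2 form the other close pair, with 88.8% identity and a longest shared run of 189 bases. Their first 120 bases are shown for the same reason, with the 15 differing bases in capitals (chrXV:160475-160594 for ADH1 and chrXIII:874218-874337 for ADH2, minus strand).
ADH1: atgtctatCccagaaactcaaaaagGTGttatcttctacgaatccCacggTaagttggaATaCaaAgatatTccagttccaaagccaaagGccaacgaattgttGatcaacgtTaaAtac
ADH2: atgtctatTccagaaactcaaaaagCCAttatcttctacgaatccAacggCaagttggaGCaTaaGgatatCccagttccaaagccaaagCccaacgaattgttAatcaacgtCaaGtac

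Of all 50-base stretches of ALD2 or ALD3, 40.4% occur elsewhere in the genome, as do 14.0% of those of ADH1 or ADH2. At 100 bases the shares were 22.5% and 9.5%, and they were 0 for the other 6 genes. How the authors treated reads that map to more than 1 place was not given in the sources used here. The levels of these 4 genes are uncertain to that extent. None of the 10 genes overlapped another annotated feature that could be matched.

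Library totals recovered from the steps of the RPKM values ran from 19264738 to 24625301 reads, and the 10 genes together took 0.838% to 0.912% of the reads. MMS21 measured 2.82 ± 0.562 RPKM in WT and 14.3 ± 1.99 RPKM in mms21RINGD (SD, n = 3 each). This level per gene does not check the labels, since it does not show which part of the gene was read. Markers of MATa cells summed to 2255 to 2607 RPKM in WT and 2360 to 2466 RPKM in the mutant, with BAR1, a MATa marker, listed at 0 in 5 of the 6 libraries. Markers of MATalpha cells summed to 12.9 to 17.0 RPKM and 24.4 to 27.6 RPKM. Sporulation markers summed to 25.7 to 31.7 RPKM in WT and 39.4 to 40.4 RPKM in the mutant, and structural and mitochondrial RNAs took 19.0% to 21.5% and 22.5% to 22.8% of the reads. The part of these differences in the results was not tested. Each call among the 10 genes held with totals that leave those RNAs out. That setting raised the log2 fold change of every one of them slightly (ADH1 from -0.008 to 0.034). It therefore could not take away a higher call, and it does not bear on the marker differences. WT replicate 1 stood apart from the other WT libraries for some of these genes. It differed from their mean by at least 1 on the log2(RPKM + 1) scale in 2.01% of the features tested and in 2 of the 10 dehydrogenase genes, ALD4 and ALD6. WT replicates 2 and 3 differed from each other by as much in 1.5% of the features and in 0 of the 10 genes. Where leaving out WT replicate 1 changed a call or moved a value by over 1.5 times, both values are given.

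Of the 10 genes, 6 were higher in mms21RINGD and 0 lower (limma moderated linear model on log2(RPKM + 1), Benjamini-Hochberg adjusted p under 0.05). Over all 6731 features tested 42.7% were higher and 10.9% lower, 53.6% in all. No gene of the 10 was lower at an unadjusted p under 0.05 either, or with voom weights on the recovered reads. ALD2, ALD3, ALD4, ADH2, ADH3 and ADH5 were the higher genes, and the groups also did not overlap for ADH4, which was not called. Groups that do not overlap were found in 64.5% of the features tested. Without WT replicate 1 ALD6 joined the higher genes, making 7 higher and 0 lower against 57.3% and 15.3% of all features. The median log2 fold change of the 10 genes was 0.33, against 0.24 for all features. That general shift depended on the scaling: it became -0.001 under median-of-ratios scaling and -0.098 under quantile normalization. Both methods remove a general shift by design, so these medians do not show whether it was real. The sign of small changes depended on the choice of scaling.

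**Figure D1:**
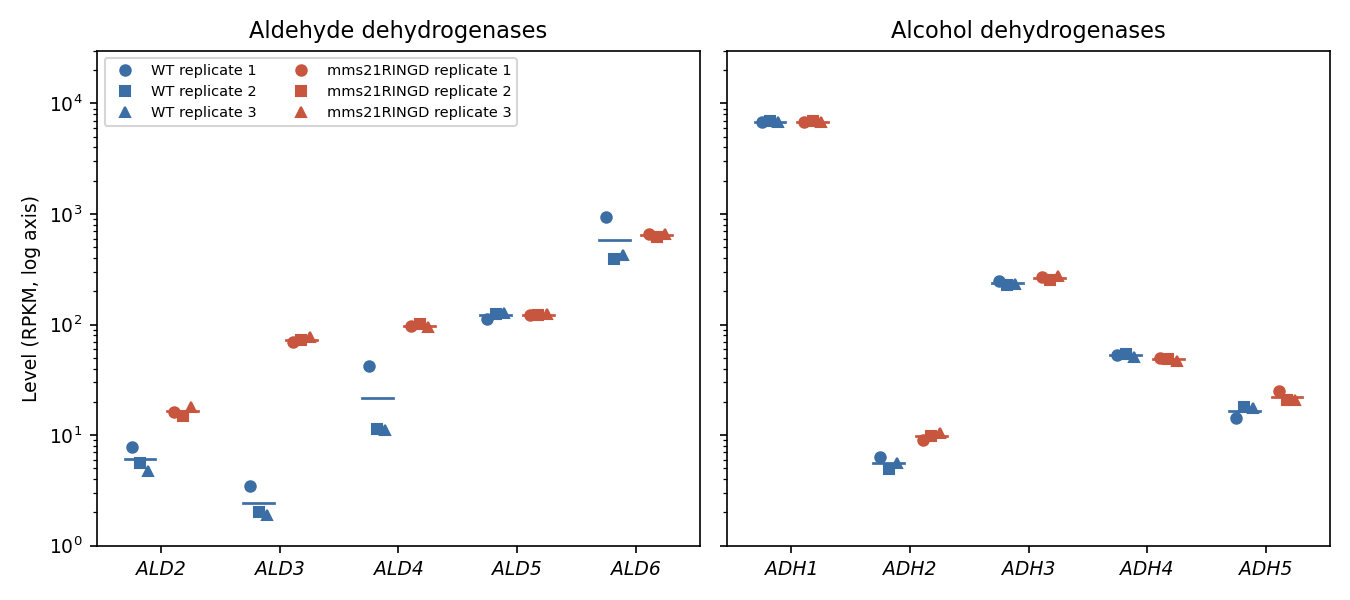
Levels of the 10 genes in each library, as RPKM on a log axis; points are libraries (circle, square and triangle for replicates 1, 2 and 3) and short lines are the means of 3. ALD3 rises from 1.88 to 3.47 RPKM in WT to 69.2 to 76.8 RPKM in the mutant, and WT replicate 1 stands above the other WT libraries for ALD4 and ALD6.

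ALD3 (YMR169C, chrXIII:599352-600872, minus strand) showed the largest change of the 10. It measured 3.47, 2.01 and 1.88 RPKM in WT replicates 1, 2 and 3, and 69.2, 73.3 and 76.8 RPKM in mms21RINGD replicates 1, 2 and 3. The groups were far apart, and the gene went from the least abundant of the 10 in WT to the middle of the set in the mutant. The ratio of means was 29.8, and the log2 fold change was 4.45 ± 0.17 (standard error, limma adjusted p = 1.68e-05), rank 10 of the 6731 features. The WT values rested on 130, 64 and 62 reads, with exact Poisson 95% intervals from 1.44 to 4.12 RPKM over the libraries, which cover counting error only. Without WT replicate 1 the ratio was 37.6.

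ALD2 (YMR170C, chrXIII:601562-603082, minus strand), whose product is the closest relative of Ald3, changed less. It measured 7.88, 5.57 and 4.75 RPKM in WT and 16.2, 15.02 and 18.03 RPKM in the mutant. All 3 mutant libraries lay above all 3 WT libraries, by a ratio of means of 2.71 (log2 fold change 1.32 ± 0.17, limma adjusted p = 0.00123). The gain of ALD2, 10.4 RPKM, was 14.7% of the gain of ALD3, 70.6 RPKM, so that reads from the shared stretches of ALD3 counted for ALD2 could make up part of it, which was not tested.

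The order of this pair turned over between the strains. ALD3 stood at 0.362 to 0.441 of the level of ALD2 in the WT libraries and at 4.26 to 4.88 times it in the mutant libraries. On the log2(RPKM + 1) scale the ratio of ALD3 to ALD2 went from -1.04 ± 0.075 to 2.09 ± 0.107 (SD, n = 3 each), a difference of 3.13. The exact two-sided permutation test gave p = 0.1, the smallest that 3 libraries against 3 allow, and 0.12 adjusted over 6 pairs of genes.

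ALD4 (YOR374W, chrXV:1039840-1041399, plus strand), the main mitochondrial aldehyde dehydrogenase, rose as well. It measured 42.2, 11.3 and 11.1 RPKM in WT and 96.8, 101.1 and 95.9 RPKM in the mutant. WT replicate 1 lay between the other WT libraries and the mutant, at 3.77 times the mean of WT replicates 2 and 3. With all libraries the ratio of means was 4.54 and the log2 fold change 2.41 ± 0.48 (95% interval 1.27 to 3.55, limma adjusted p = 0.00701). Without that library the ratio was 8.75 (log2 fold change 3.02 ± 0.042, limma adjusted p = 2.79e-07). ALD4 ranked 78 of 6731 features by log2 fold change.

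ALD5 (YER073W, chrV:304030-305592, plus strand), the other mitochondrial enzyme, did not follow. It measured 112.6, 125.6 and 128.3 RPKM in WT and 122.2, 122.6 and 123.9 RPKM in the mutant. The mutant libraries fell inside the range of WT, and the 95% interval of the log2 fold change was -0.15 to 0.17 (limma adjusted p = 0.896). The gene was called under none of the other scalings.

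ALD6 (YPL061W, chrXVI:432588-434090, plus strand), the cytosolic enzyme that makes most acetate during growth on glucose, was the most abundant ALD gene and the one that a single library decided. It measured 936.9, 393.3 and 426.4 RPKM in WT and 659.8, 623.5 and 655.7 RPKM in the mutant. WT replicate 1 stood above every mutant library, and the other WT libraries stood below every one. With all libraries the gene was not called (log2 fold change 0.26 ± 0.31, 95% interval -0.49 to 1.01, limma adjusted p = 0.506). Without WT replicate 1 it was higher, by a ratio of 1.58 (log2 fold change 0.66 ± 0.046, limma adjusted p = 4.24e-05).

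**Figure D2:**
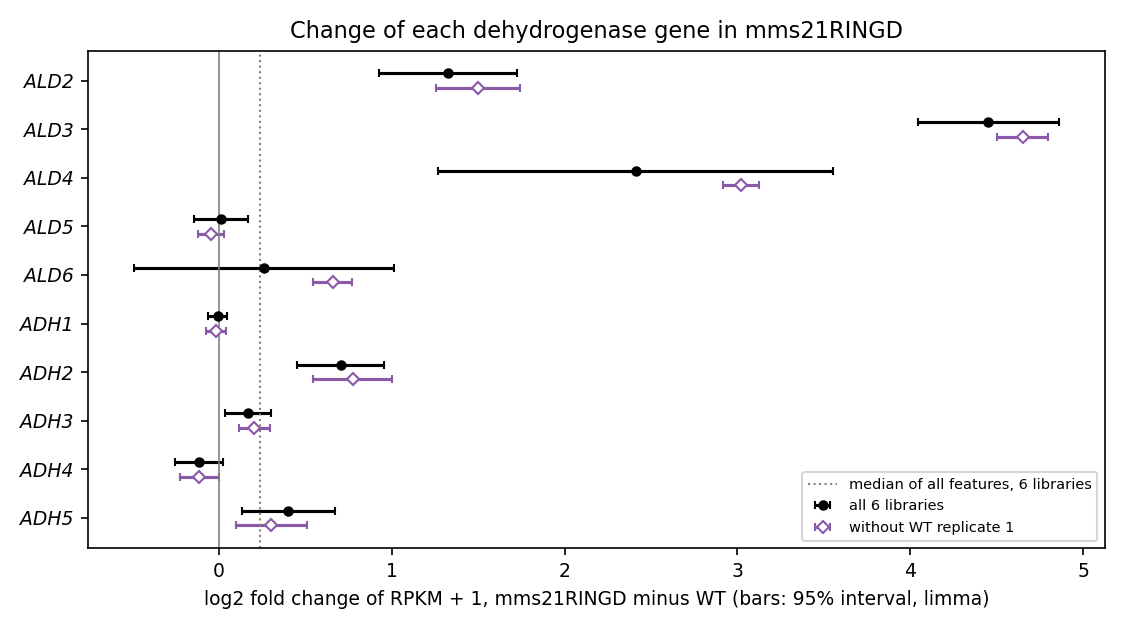
Log2 fold change of each gene, mms21RINGD minus WT, on the log2(RPKM + 1) scale with the 95% interval of the limma fit, for all 6 libraries (filled circles) and without WT replicate 1 (open diamonds); the dotted line is the median of all features, 0.24. Leaving out that library moves ALD4 from 2.41 to 3.02 and ALD6 from 0.26 to 0.66 and narrows both intervals.

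Among the alcohol dehydrogenases the dominant gene did not move. ADH1 (YOL086C, chrXV:159548-160594, minus strand), the fermentative enzyme, measured 6768, 6951 and 6847 RPKM in WT and 6790, 6899 and 6760 RPKM in the mutant. The groups overlapped. Its log2 fold change was -0.01 ± 0.02 (95% interval -0.06 to 0.05, limma adjusted p = 0.779), but median-of-ratios scaling called it lower at -0.26. ADH1 ranked 18 of 7126 features by mean level.

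ADH2 (YMR303C, chrXIII:873291-874337, minus strand), the ethanol-oxidizing enzyme, stayed rare. It measured 6.28, 4.98 and 5.63 RPKM in WT and 9.02, 9.82 and 10.5 RPKM in the mutant, from 109 to 247 reads a library. The groups did not overlap, and the ratio of means was 1.74 (log2 fold change 0.70 ± 0.11, limma adjusted p = 0.00246). With quantile normalization the call was lost, at 0.157. In each library ADH2 lay at 0.0717% to 0.156% of the level of ADH1; whether reads of ADH1 from their shared stretches were counted for ADH2 was not tested.

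ADH3 (YMR083W, chrXIII:434788-435915, plus strand), the mitochondrial enzyme, differed slightly. It measured 248.3, 229.4 and 230.8 RPKM in WT and 267.6, 255.6 and 272.7 RPKM in the mutant, a ratio of 1.12 with no overlap (log2 fold change 0.17 ± 0.06, limma adjusted p = 0.0427). The call was lost when any library other than WT replicate 1 was left out, and with median-of-ratios scaling the sign turned, to -0.087. Relative to ADH1 within a library, ADH3 was higher in all 3 mutant libraries, with a difference in log2 ratio of 0.18 (exact two-sided permutation p = 0.1, adjusted p = 0.12).

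ADH5 (YBR145W, chrII:533762-534817, plus strand), the minor relative of ADH1, measured 14.3, 17.95 and 17.6 RPKM in WT and 24.9, 20.96 and 20.9 RPKM in the mutant. It was called higher by a ratio of 1.34 (log2 fold change 0.40 ± 0.11, limma adjusted p = 0.0239). The call was lost without any single mutant library, under median-of-ratios scaling (0.157) and under quantile normalization (0.046). Here WT replicate 1 was the lowest library, unlike for ALD2, ALD3, ALD4 and ALD6.

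ADH4 (YGL256W, chrVII:15159-16307, plus strand), the member of the separate family, lies 15158 bases from the left end of chromosome VII. It measured 53.4, 54.3 and 51.3 RPKM in WT and 49.9, 49.3 and 47.0 RPKM in the mutant. The mutant libraries all lay below WT, by a ratio of 0.919, but the gene was not called (log2 fold change -0.12 ± 0.06, limma adjusted p = 0.123). Both median-of-ratios scaling (-0.37) and quantile normalization (-0.356) called it lower.

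RPKM is scaled to length, so levels can be ranked between genes. In WT the order was ADH1, ALD6, ADH3, ALD5, ADH4, ALD4, ADH5, ALD2, ADH2 and ALD3. Neighbours whose libraries overlapped were ALD4 with ADH5 and ALD2 with ADH2. In mms21RINGD the order was ADH1, ALD6, ADH3, ALD5, ALD4, ALD3, ADH4, ADH5, ALD2 and ADH2, and no neighbours overlapped. ALD4 thus passed ADH4, and ALD3 passed ADH2, ALD2, ADH5 and ADH4, while the 4 most abundant genes kept their places.

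The make-up of the summed levels moved in the ALD family and hardly in the ADH family. ADH1 to ADH5 summed to 7167 ± 84.7 RPKM in WT and 7163 ± 64.7 RPKM in the mutant (SD, n = 3 each, exact permutation p = 0.9), with ADH1 at 95.7% and 95.2% of the sum. ALD2 to ALD6 summed to 1103, 537.9 and 572.4 RPKM in WT and to 964.2, 935.5 and 970.3 RPKM in the mutant (exact permutation p = 0.4). WT replicate 1 held the highest sum, mostly through ALD6.

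Within the ALD sum, ALD3 held 0.339% ± 0.0315 in WT and 7.64% ± 0.404 in the mutant, and ALD4 held 2.62% ± 1.05 and 10.2% ± 0.496 (SD, n = 3 each). ALD6 held less of the sum in the mutant, at 77.5% ± 6.46 in WT and 67.5% ± 0.888 in the mutant, a difference of -9.97 percentage points that was -6.26 without WT replicate 1. ALD2 held 0.860% ± 0.163 and 1.72% ± 0.129. For ALD2, ALD3, ALD4 and ALD6 no WT library overlapped the mutant, each with the smallest exact two-sided permutation p of 0.1. The shares of ADH1 to ADH5 in the ADH sum each gave the same p, so it does not set the families apart. ALD5 held 10.2%, 23.4% and 22.4% in WT and 12.7% to 13.1% in the mutant (exact permutation p = 0.4). This difference of -5.81 percentage points was -10.04 without WT replicate 1, -3.46 without WT replicate 2 and -3.93 without WT replicate 3. The ratio of ALD4 to ALD6 within a library rose by 2.15 on the log2 scale, from -4.86 ± 0.374 to -2.71 ± 0.084 (exact two-sided permutation p = 0.1, adjusted p = 0.12). That of ALD5 to ALD6 differed by -0.25 with overlapping groups (exact permutation, adjusted p = 0.6). Single libraries decided the latter, which was -0.70 without WT replicate 1, 0 without WT replicate 2 and -0.043 without WT replicate 3.

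**Figure D3:**
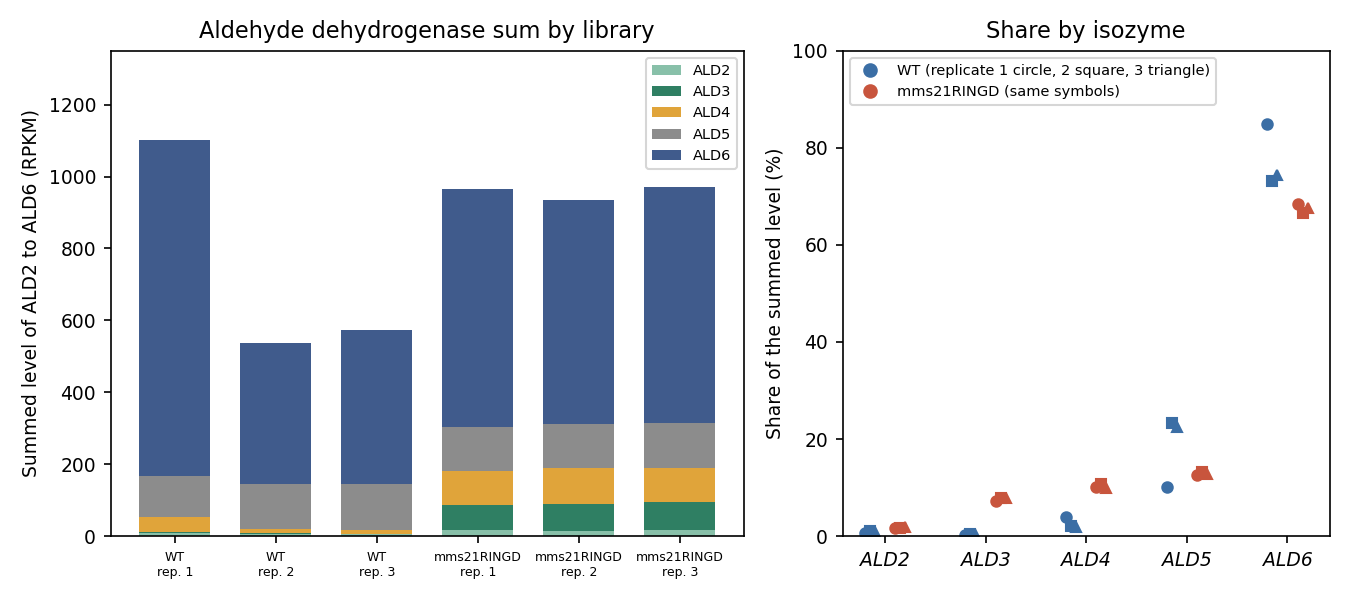
Left, levels of ALD2 to ALD6 stacked for each library (RPKM, axis from 0); right, share of each gene in that sum (percent), with WT in blue and mms21RINGD in red. The mutant libraries sum to 935.5 to 970.3 RPKM, between WT replicate 1 (1103) and the other WT libraries (537.9 and 572.4), and hold more ALD3 and ALD4.

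Motif letters were counted on both strands of the 600 bases before each start codon, a window chosen after the sequences had been looked at. AGGGG matched in 39.7% of 5999 such windows in the genome and at 2 or more places in 10.7%. ALD3, ALD4 and ADH2 held 2 matches each and ALD6 held 3, while ALD5, ADH1 and ADH5 held 1 and ALD2, ADH3 and ADH4 none. The core TTGGNG of the sites of Adr1, the activator of ADH2, matched in 59.8% of all windows. The zinc-responsive element of Zap1, a regulator of ADH4 (ACCTT, any base, AAGGT), matched in 0.17% and in none of the 10 genes. The core of the carbon source response element (CC, 6 bases of any kind, CCG) read by Cat8 and Sip4 matched in 24.7% and in ADH2, ADH3 and ALD6. Of the genes called higher with all libraries, ALD3, ALD4 and ADH2 thus held 2 stress elements, ADH5 held 1, and ALD2 and ADH3 held none. Of those not called, ALD6 held 3, ADH1 and ALD5 held 1, and ADH4 held none. Whether these matches bear on the levels was not tested.

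The stretch of ALD4 shown here, 140 bases that begin 320 bases before its start codon (chrXV:1039520-1039659, plus strand), holds both of its stress elements and an adjacent pair of Adr1 cores, all in capitals. That of ADH2, 50 bases, begins 310 bases before its start codon (chrXIII:874598-874647, minus strand), with its Adr1 cores, in opposite orientation, in capitals. They are shown for the layout of their Adr1 cores. ADH1, which was not called, also holds 2 such cores, and ALD5 and ADH4, not called either, hold 1 each; 2 or more occur in 24.6% of all windows.
ALD4: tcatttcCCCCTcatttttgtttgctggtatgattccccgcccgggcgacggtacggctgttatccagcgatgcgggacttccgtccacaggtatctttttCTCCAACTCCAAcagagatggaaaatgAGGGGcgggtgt
ADH2: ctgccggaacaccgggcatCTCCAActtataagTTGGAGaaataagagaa

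**Figure D4:**
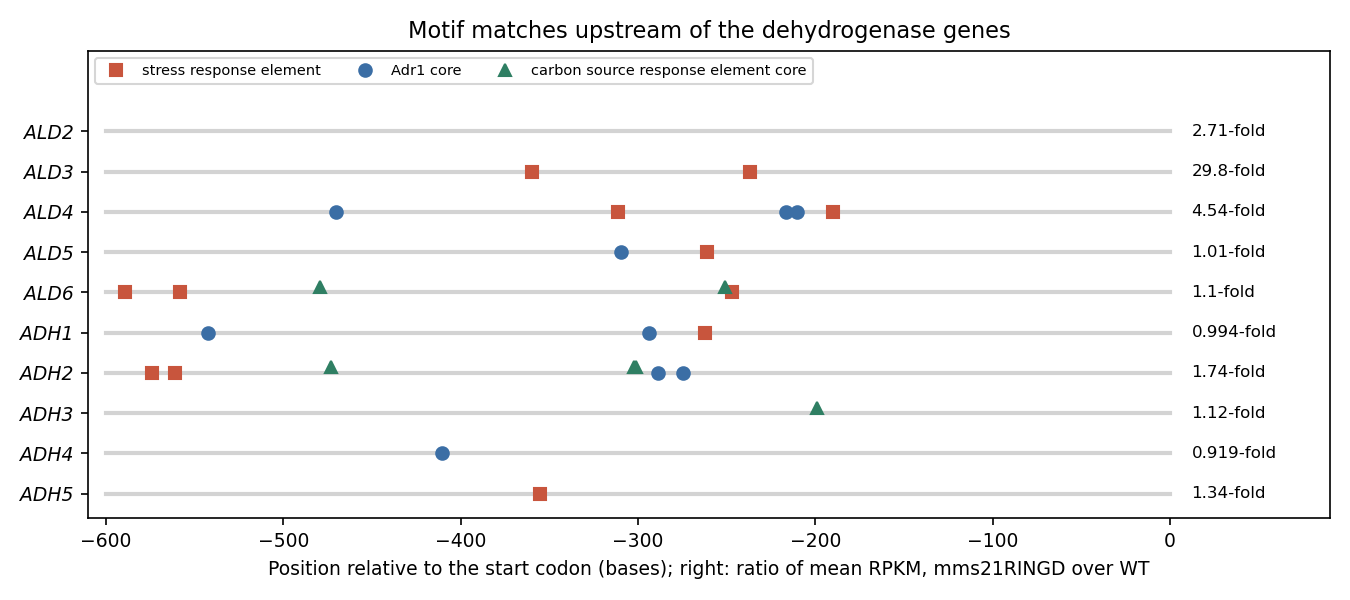
Positions of motif matches in the 600 bases before each start codon (bases, start codon at 0); squares mark the stress response element, circles the Adr1 core and triangles the carbon source response element core, and the ratio of mean RPKM, mutant over WT, stands at the right. ALD3, with a ratio of 29.8, holds 2 stress elements and ALD2, with 2.71, holds none of the motifs searched. ALD6, with 1.10 and not called, holds 3 stress elements, and ADH2, with 1.74, holds 2.

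Genes that feed acetaldehyde and use acetate split by abundance. Of 6 genes of pyruvate decarboxylation and acetyl-CoA synthesis 4 were higher and 0 lower by limma (42.7% and 10.9% over all features). Their median log2 fold change was 0.61, and 0 were lower at an unadjusted p under 0.05 or with voom. PDC6, a minor pyruvate decarboxylase, was at 1.19 to 1.42 RPKM in WT and 2.91 to 3.65 RPKM in the mutant (not called with quantile normalization). ACS1, the glucose-repressed acetyl-CoA synthetase, was at 6.77 to 9.10 and 14.1 to 14.9 RPKM, and ACH1, a mitochondrial CoA transferase, at 14.9 to 24.2 and 32.6 to 34.3 RPKM. PDC1, the main decarboxylase, overlapped at 10480 to 12910 and 12050 to 12310 RPKM, and so did ACS2, the synthetase of growth on glucose, at 472.3 to 577.2 and 510.5 to 522.2 RPKM. With median-of-ratios scaling PDC1 and ACS2 were called lower, and without WT replicate 1 both were called higher. In that setting 6 of 6 were higher, against 57.3% of all features.

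In mitochondrial pyruvate use, 3 of 8 genes were higher and 0 lower by limma, no larger a share than the 42.7% higher over all features, with a median of 0.20 and again 0 lower at an unadjusted p under 0.05 and with voom. MPC3, the pyruvate carrier subunit of respiratory growth, was at 6.81, 3.37 and 2.40 RPKM in WT and 9.01 to 12.2 RPKM in the mutant. LAT1 and LPD1, subunits of the pyruvate dehydrogenase complex, had ratios of 1.305 and 1.40. The count moved with the libraries used. Without WT replicate 1, 6 genes were higher, against 57.3% of all features. It was 0 without WT replicate 2 or mms21RINGD replicate 1, against 1979 of 6733 and 2138 of 6714 features. Without any of the other 3 libraries it was 1, against 2136 of 6739 (WT replicate 3), 1913 of 6719 and 1848 of 6706 features (mms21RINGD replicates 2 and 3). Calls thus also fell over all features, from 2875 of 6731. With median-of-ratios scaling 1 was higher and 3 were lower, against 1710 and 1822 of 6724 features.

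Most other alcohol, aldehyde and related dehydrogenases were higher. Of 20 listed genes 19 had a row and 18 were tested; AAD16 was not analysed here. Of these 15 were higher and 0 lower by limma (42.7% and 10.9% over all features), with a median log2 fold change of 0.66, and none was lower at an unadjusted p under 0.05 or with voom. GCY1, a glycerol dehydrogenase of the aldo-keto reductase family, went from 9.85 to 11.7 RPKM in WT to 111.5 ± 7.91 RPKM in the mutant (SD, n = 3), a ratio of 10.3 (log2 fold change 3.25 ± 0.09, limma adjusted p = 7.83e-06). GRE3, an aldose reductase, rose 3.72-fold, BDH2, a putative relative of butanediol dehydrogenase, 3.28-fold, and UGA2, succinate semialdehyde dehydrogenase, 2.64-fold. BDH1 (butanediol dehydrogenase) and HFD1 (a fatty aldehyde dehydrogenase) rose 2.59-fold and 2.13-fold. Without WT replicate 1 these 18 were all higher, against 57.3% of all features. AAD15, which passed the filter in that setting, was not called there (log2 fold change 0.717, limma adjusted p = 0.0568). With median-of-ratios scaling 9 were higher, against 1710 of 6724 features. The count was also 9 without WT replicate 2 and without mms21RINGD replicate 3, against 1979 of 6733 and 1848 of 6706 features. With quantile normalization 10 were higher and 3 lower, against 1373 and 2323 of 6731 features. The AAD genes are related to each other, and their identity was not measured here. Their separate values are uncertain to the extent that reads were shared among them, which was not tested.

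Regulators of ADH and ALD genes were called in 10 of 20 cases, all higher, close to the share over all features (42.7% higher, 53.6% called). Their median log2 fold change was 0.33. ADR1 itself rose from 4.74 to 9.24 RPKM in WT to 30.1 to 30.3 RPKM in the mutant, a ratio of 4.76 (log2 fold change 2.14 ± 0.22, limma adjusted p = 0.000502). SIP4 and CAT8, activators of genes of gluconeogenesis, had ratios of 4.78 and 2.22 from WT levels of at most 1.04 and 3.42 RPKM. Quantile normalization took away the call of CAT8, at a log2 fold change of 0.313. MSN4 was higher at a ratio of 1.73, while MSN2, its paralog, was not called at 1.09 (higher without WT replicate 1, at 1.24). HAP4, the activator subunit of the CCAAT-binding complex, was at 30.4 to 31.1 RPKM in WT and 50.9 to 55.9 RPKM in the mutant. The other regulators called higher were HAP5, REG1, YAP1, MIG2 and HAP3, at ratios of 1.83, 1.70, 1.65, 1.43 and 1.23. MIG1 was not called, at 1.215 (higher without WT replicate 1, at 1.345). Median-of-ratios scaling removed the calls of MIG2 (log2 fold change 0.242) and HAP3 (0.045). Quantile normalization removed them too (0.083 and -0.07), while REG1 stayed higher in both settings. RAP1, GCR1 and GCR2, activators of glycolytic genes and of ADH1, were not called, with log2 fold changes of -0.19, 0.06 and -0.04. None was lower by limma, and RAP1 alone was at an unadjusted p under 0.05 and with voom. Median-of-ratios scaling made 4 of the 20 regulators lower and quantile normalization 7, against 1822 of 6724 and 2323 of 6731 features. Without WT replicate 1 there were 15 higher and 1, RAP1, lower, against 57.3% and 15.3% of all features.

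Genes listed as glucose-repressed genes of ethanol and acetate use were mostly higher from low levels. The list also holds genes of other functions, such as HXK1, HXT2 and ATO3. Of 16 genes 12 were higher and 2 lower (42.7% and 10.9% over all features), with a median log2 fold change of 0.71. SUC2 was not called at a ratio of 1.21 (higher without WT replicate 1, at 1.325), nor was CTA1, at 1.04. PCK1, of gluconeogenesis, was at 2.96 to 3.42 RPKM in WT and 8.28 to 9.15 RPKM in the mutant, and MDH2, cytosolic malate dehydrogenase, at 8.48 to 10.6 and 31.5 to 36.4 RPKM. ICL1, isocitrate lyase of the glyoxylate cycle, was at 10.04 to 11.7 and 12.6 to 14.0 RPKM, a call lost under either other scaling and without any library other than WT replicate 1. HXK1, a hexokinase gene, showed the pattern of ALD4, with 72.7, 9.85 and 7.26 RPKM in WT and 115.8 to 123.9 RPKM in the mutant. The ratio was 3.96 with all libraries and 13.9 without WT replicate 1, and its call was lost when any library other than WT replicate 1 was left out. ATO3 and HXT2, genes of an ammonium and a hexose transporter, were lower, at ratios of 0.772 and 0.776. The call of HXT2 was lost without WT replicate 3 or any mutant library. With quantile normalization 7 were higher and 3 lower, against 1373 and 2323 of 6731 features.

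**Figure D5:**
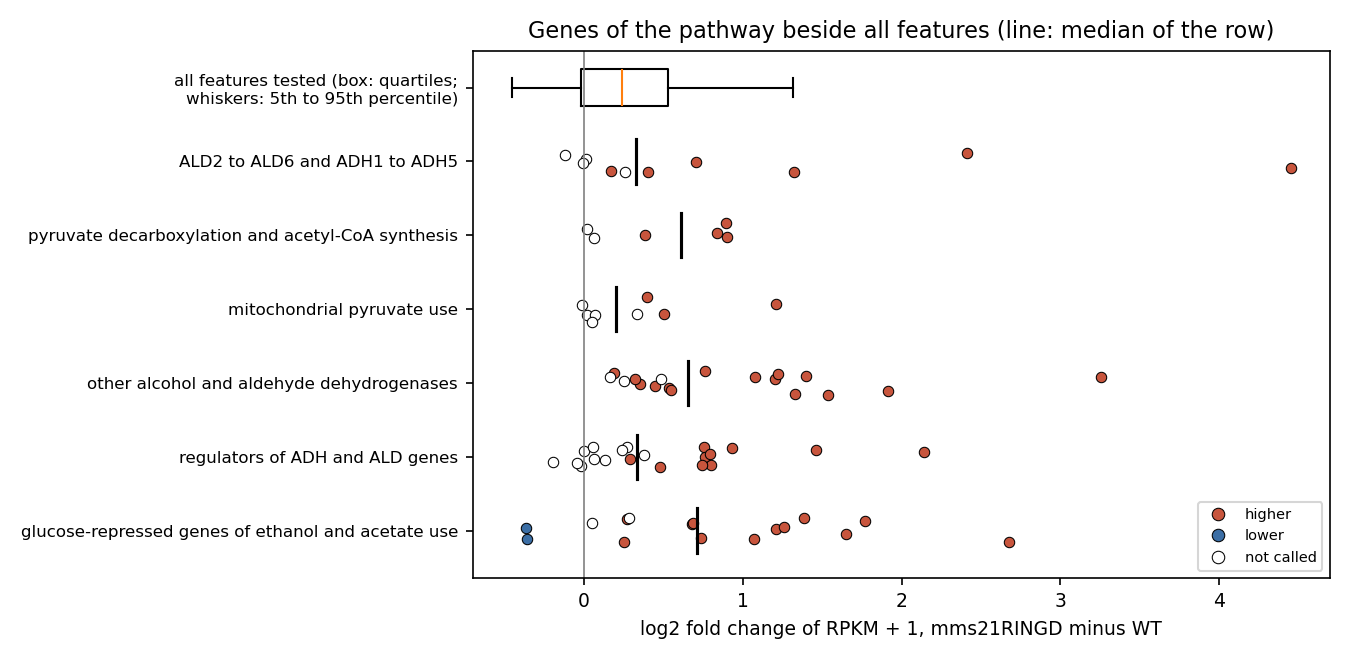
Log2 fold change of each tested gene, mms21RINGD minus WT on the log2(RPKM + 1) scale, for the 10 dehydrogenase genes and the 5 lists, in red where higher, blue where lower and white where not called; vertical lines are row medians and the box shows all 6731 features. The row medians run from 0.20 for mitochondrial pyruvate use to 0.71 for the glucose-repressed genes, against 0.24 for all features.

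The features most like each gene were those with the smallest root mean square difference of log2(RPKM + 1), after subtraction of each gene's own mean, over the 6 libraries and among features that averaged 10 RPKM or more. For ALD3 they were RTN2 (0.0958), MSC1 (0.122) and SPG4 (0.223), all of them rising from at most 12.2 RPKM in WT to at least 41.6 RPKM in the mutant. For ALD4 they were HSP78, HSP82 and GLK1 (0.127 to 0.135), which share its raised value in WT replicate 1: GLK1, glucokinase, measured 97.7, 29.3 and 27.1 RPKM in WT and 268.8 to 283.4 RPKM in the mutant. For ALD6 they were MHT1, MDG1 and DIP5 (0.110 to 0.118), and DIP5, an amino acid permease gene, measured 92.5, 46.2 and 47.9 RPKM in WT and 61.9 to 64.3 RPKM in the mutant. For ALD2 they were SDS22, MCO10 and LCB5 (0.0571 to 0.0688). Likeness over the 6 libraries was the rule of choice, so the shared patterns follow from it and are no separate result.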

How the data were processed

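The authors deposited 1 table of RPKM values with a column for each of the 6 libraries, matched here by title. Per the submitters' processing notes the build was sacCer3 (also called R64) and the tools named, in no stated role, were edgeR 3.8.6, TopHat2 2.0.8 and CASAVA 1.8.2. The sources used here do not name the counter, the annotation or the strand setting, and antisense reads cannot be told apart. Names and lengths came from RefSeq R64: 6048 features matched by locus tag, 114 by symbol, 964 not at all. Value times gene length was a whole multiple of 1 read, within 0.02 of a read, for 99.8% of values above 0, which gave the library totals. A floor of 3 reads in 1 kb is 0.122 to 0.156 RPKM.

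RPKM is not a count, so limma 3.58.1 (R 4.3.3) was run on log2(RPKM + 1) of all features that averaged 1 RPKM or more (variance trend, no covariate), two-sided, with Benjamini-Hochberg adjustment and calls under 0.05. The fit was checked on simulated data. Fold changes on this scale understate the change of low genes; ratios are of mean RPKM. Single values were tested by exact permutation over libraries. Identity came from global alignment in Biopython 1.88. Alternatives were other pseudocounts, filters, scalings, voom weights, omission of each library in turn and a replicate block. Named genes are the 10 members, MMS21, every gene of the 5 pathway lists, the marker lists, and the 3 features most like each member. Members and lists were chosen with earlier results of these data known.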

Additional observations from a re-analysis of the deposited data

How the results depend on the processing

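ALD2, ALD3 and ALD4 were called higher under all 15 alternatives and ALD5 under none. ADH2 was not tested at a filter of 10 RPKM. Scaling moved most else. With median-of-ratios scaling 1710 of all features were higher and 1822 lower, and with quantile normalization 1373 and 2323, against 2875 and 732 as deposited; the replicate block gave 2250 and 549. Of the 10 genes, 4 were higher and 2 lower (ADH1 and ADH4) with median-of-ratios scaling, 3 higher and 1 lower with quantile normalization, and 4 higher with the replicate block, where ADH3 and ADH5 were lost (adjusted p = 0.0925 and 0.0678). ADH3 turned to -0.087 with median-of-ratios scaling. Replicate numbers did not pair libraries: deviations from group means correlated at -0.143, 0.046 and -0.096 for numbers 1, 2 and 3.

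Decarboxylation and acetyl-CoA genes were higher in 2 cases with quantile normalization and lower in 2 with median-of-ratios scaling. For mitochondrial pyruvate use the latter gave 1 higher and 3 lower, and leaving out 1 library 0 to 6 higher. Other dehydrogenases were higher in 9 cases with median-of-ratios scaling, lower in 3 with quantile normalization, and higher in 9 to 18 when 1 library was left out. Regulators were lower in 4 cases with median-of-ratios scaling, 7 with quantile normalization, 1 with voom weights and 0 to 1 when 1 library was left out. Glucose-repressed genes were higher in 4 cases at a filter of 10 RPKM, which leaves out the low genes, and in 7 with quantile normalization, and lower in 1 to 2 when 1 library was left out. All features were higher in 1848 to 3865 and lower in 433 to 1029 cases when 1 library was left out. The log2 ratio of ALD3 to ALD2 differed by 3.44 and 2.43 with pseudocounts of 0.1 and 5 RPKM, and that of ADH2 to ADH1 by 0.485 with 5. The cause of these differences was not tested. No outlier test was run on groups of 3.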

Other observations

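ZRT1, the high-affinity zinc transporter gene and a target of Zap1, was chosen after its values were seen. It measured 40.03 RPKM in WT replicate 1, 235.2 and 293.7 RPKM in the other WT libraries and 74.3 to 81.2 RPKM in the mutant. With all libraries it was not called (log2 fold change -0.85, limma adjusted p = 0.336), and without WT replicate 1 it was lower (-1.74, limma adjusted p = 1.7e-05). ADH4, described above as a gene that Zap1 also regulates, spanned 51.3 to 54.3 RPKM over the same WT libraries, and ZAP1 itself measured 4.86, 7.08 and 7.16 RPKM there.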
